A study of Homo sapiens with 4 samples.

Results

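Rab GTPases are small GTP-binding proteins that give each membrane compartment of a cell its identity. In their GTP-bound form they sit on a membrane and recruit effectors, which tether, move or fuse vesicles. Exchange factors switch them on and GTPase-activating proteins of the TBC family switch them off. The family member RAB27A is best known from melanosomes and from the secretory granules of blood cells, and its paralog RAB27B from platelets and secretory epithelia. Endothelial cells use Rabs to release von Willebrand factor from Weibel-Palade bodies, their own secretory granules.

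The genes described here are the rows whose symbol is RAB followed by a number and at most 1 letter from A to F, in each of 4 RNA sequencing tables. There were 61 such rows of 28285, with 60 symbols, because RAB5C had 2 rows (ENSG00000108774, and ENSG00000267261, a transcript unit that joins it to the neighbouring gene KAT2A). The rule used no measured value. It leaves out RAB7L1, an older symbol of RAB29.

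All cells were made from H1, a human embryonic stem cell line in long use, with a gene for enhanced green fluorescent protein placed in GATA2, a transcription factor gene of blood progenitors. All samples carried that knock-in, and their titles also name Cre without giving it a role. The GFP-positive cells (2 libraries) had the reporter signal, CD34 and CD31 on the surface and no CD43. They were labelled hemogenic endothelium, which gives rise to blood. The GFP-negative cells (2 libraries) had the same surface proteins without the reporter signal, and were labelled endothelial cells, although their source name also reads hemogenic endothelium. Nothing in them ties replicates to separate cultures. The p-values therefore reflect the spread between these libraries alone, and it may be technical.

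Levels are in TPM, a gene's share of all transcripts after correction for transcript length. The number of reads is unknown, because TPM keeps no depth. At least 1 TPM was reached by 14804 and 14730 genes in GFP-positive cells, against 15109 and 15062 genes in GFP-negative cells. GATA2 stood at 302 and 385 TPM in GFP-positive cells, against 80.2 and 87.3 TPM in GFP-negative cells, in the direction of the sort. All 10 endothelial markers were measured, and their summed level was 3582 and 3750 TPM in GFP-positive cells, against 5856 and 5433 TPM in GFP-negative cells. Summed erythroid markers were at 434 and 242 TPM against 53.2 and 53.0 TPM, and summed platelet and megakaryocyte markers at 175 and 220 TPM against 103 and 115 TPM, with PPBP and P2RY12 at 0 in all 4 libraries. Summed mesenchymal markers were at 1068 and 971 TPM against 589 and 673 TPM, most of it COL1A1, COL1A2 and COL3A1. Of the 10 mesenchymal markers, 3 had both GFP-positive libraries above both GFP-negative ones and 0 had them below. That is 30%, against 44.3% of all genes tested. PRRX1 had 2.60 and 0 TPM against 2.15 and 8.11 TPM. The endothelial, erythroid, platelet and mesenchymal sums move with the groups in all comparisons that follow. So do the epithelial and mast cell sums given below and, by less, the summed leukocyte markers (665 and 706 TPM against 660 and 602 TPM). The part of these sums in the Rab values was not tested. Of 10 tested leukocyte markers, 5 were above and 5 below 0. In sorted bulk RNA, fewer cells of a type and less RNA per cell cannot be told apart.

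No Rab gene passed the test between the fractions. With limma on log2(TPM + 1) and Benjamini-Hochberg adjustment over all 15425 genes tested, 0 of the 56 Rab rows that reached 1 TPM in at least 2 libraries had an adjusted p under 0.05, against 0.447% of all genes (0.123% higher and 0.324% lower in GFP-positive cells). At an unadjusted p under 0.05 there were 6 (10.7%), 3 higher and 3 lower in GFP-positive cells, against 14.1% of all genes (6.69% higher and 7.38% lower). The 6 were RAB27B, RAB7A and RAB3A on the higher side and RAB4A, RAB3D and RAB25 on the lower side. The smallest adjusted p among Rab genes was 0.249, for RAB27B and RAB25. RAB25 entered the test only through the GFP-negative libraries, where it is higher, so its place among the 6 is no support for a difference. The same limit holds for RAB3A, which would not have entered without the GFP-positive libraries, where it is higher. In 22 of the 56 rows (39.3%) the GFP-positive libraries did not overlap the GFP-negative ones, 10 above and 12 below, against 44.3% of all genes tested (22.8% above and 21.5% below).

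The family as a whole was nearly level. Its summed level was 3818 and 3768 TPM in GFP-positive libraries, against 3873 and 3673 TPM in GFP-negative libraries, so that the groups overlapped. The median log2 fold change over the 56 rows was -0.10, against 0.02 over all genes tested. The median absolute log2 fold change was 0.21, against 0.33 over all genes tested. Rab rows had a median level of 24.5 TPM and all tested genes one of 19.4 TPM. Between single replicate libraries, the median absolute log2 difference of the Rab rows was 0.40 in GFP-positive cells and 0.29 in GFP-negative cells, against 0.36 and 0.31 over all genes tested. Among the 5 rows left untested, RAB6C and RAB19 were listed at 0 in every library. RAB41 and RAB44 stayed under 1 TPM, and RAB36 had 0 and 3.22 TPM in GFP-positive cells, against 0.87 and 0.94 TPM in GFP-negative cells.

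**Figure D1:**
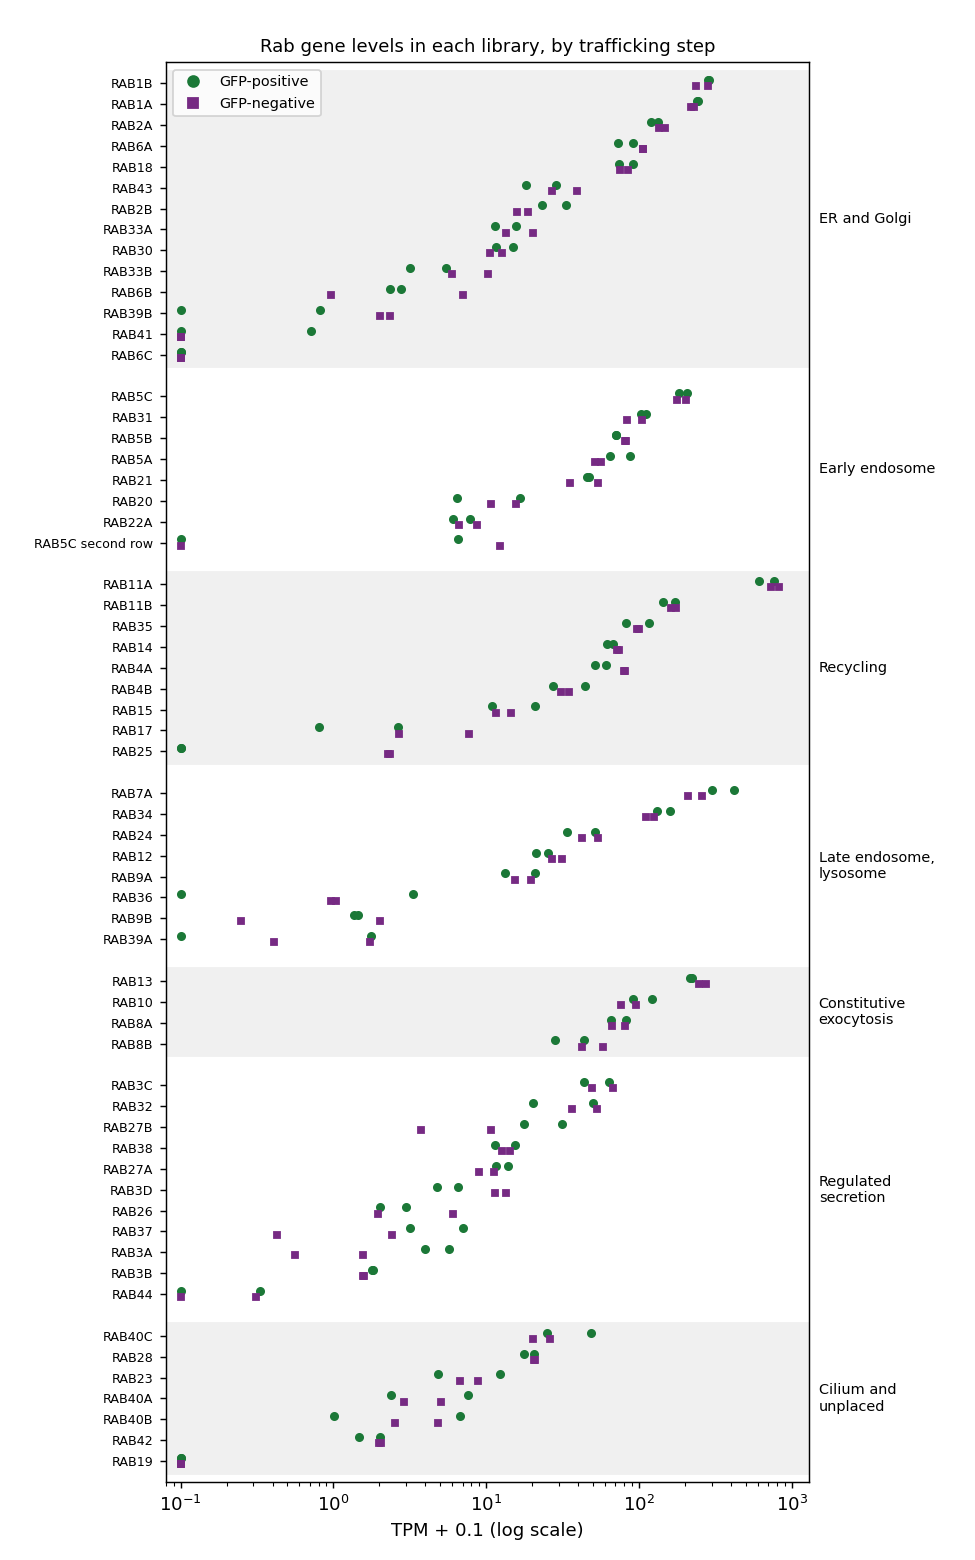
TPM + 0.1 on a log scale for all 61 Rab rows, grouped by trafficking step, with GFP-positive libraries as circles and GFP-negative libraries as squares. RAB11A leads in every library, and for most rows the circles and squares lie close together.

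Because the cells were sorted on a GATA2 reporter, the promoters of the Rab genes were searched for GATA motifs in the 250 bases before each start in RefSeq's GRCh38.p14 annotation. The letters AGATAA were counted, as were the letters TGATAA, those with a final G (AGATAG) and the other form with a final G (TGATAG), each on both strands. Of the 60 symbols, 47 matched, with 67 windows. A GATA motif was found in 12 Rab windows (17.9%), against 22.3% of all 35116 promoter windows. GGGCGG, the GC box of many broadly active promoters, was found on either strand in 50 Rab windows (74.6%), against 42.6% of all windows. Windows of the same gene can overlap, as those of RAB43 do, and each was counted, so the windows are not independent. The windows of RAB27A, RAB27B, RAB3A and RAB7A are shown, a choice made with their values known, and all of these genes lay higher in GFP-positive cells. The first pair marks the secretory branch. RAB7A had the largest difference of its step and RAB3A that of the RAB3 paralogs. RAB25, RAB5A, RAB8B and RAB40C also had the largest differences of their steps, and none of their windows holds a GATA motif. Nor do the windows of RAB4A and RAB3D, which lay lower in GFP-positive cells. RAB27A has 5 windows, 2 of them with a GATA motif, and RAB27B has 2, 1 of them with a motif. For both, the outermost is given, and capitals mark a GATA motif on either strand. A match describes letters and not a bound site.
RAB27B, chr18:54717607-54717856, plus strand: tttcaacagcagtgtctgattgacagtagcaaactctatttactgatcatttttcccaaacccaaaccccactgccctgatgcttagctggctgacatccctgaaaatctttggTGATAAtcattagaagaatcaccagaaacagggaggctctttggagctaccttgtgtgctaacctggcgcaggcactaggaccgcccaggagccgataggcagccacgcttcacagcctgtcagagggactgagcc
RAB27A, chr15:55319124-55319373, minus strand: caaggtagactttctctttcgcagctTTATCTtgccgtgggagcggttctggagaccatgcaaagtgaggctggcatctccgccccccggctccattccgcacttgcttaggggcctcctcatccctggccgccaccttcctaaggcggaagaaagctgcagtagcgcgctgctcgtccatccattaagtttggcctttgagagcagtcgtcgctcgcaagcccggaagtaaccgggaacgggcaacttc
RAB3A, chr19:18204043-18204292, minus strand: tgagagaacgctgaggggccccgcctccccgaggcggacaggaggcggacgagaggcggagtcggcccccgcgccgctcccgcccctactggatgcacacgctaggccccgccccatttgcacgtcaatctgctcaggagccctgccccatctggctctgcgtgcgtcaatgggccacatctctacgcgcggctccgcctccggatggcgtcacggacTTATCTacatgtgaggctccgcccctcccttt
RAB7A, chr3:128725933-128726182, plus strand: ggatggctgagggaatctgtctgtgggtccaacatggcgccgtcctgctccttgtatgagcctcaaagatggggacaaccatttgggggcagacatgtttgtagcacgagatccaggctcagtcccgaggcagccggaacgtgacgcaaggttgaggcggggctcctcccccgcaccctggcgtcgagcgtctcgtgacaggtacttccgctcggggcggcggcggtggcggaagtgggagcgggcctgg
The RAB27B, RAB27A and RAB3A windows each hold 1 GATA motif, and the RAB7A window holds none.

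Regulated secretion and lysosome-related organelles held the widest differences, with a median absolute log2 fold change of 0.44. The tested genes of this step also had a lower median level than all tested Rab rows, 10.1 TPM against 24.5 TPM. Their median SE was larger, 0.47 against 0.33. Of its 11 genes, 10 were tested and 0 passed. RAB27B and RAB3A were higher and RAB3D lower in GFP-positive cells at an unadjusted p under 0.05 (30%, against 14.1% of all genes tested). The libraries did not overlap in 5 genes above and 1 below (60%, against 44.3% of all genes tested). RAB3A and RAB37 reached 1 TPM in 1 GFP-negative library only, so they entered the test through the GFP-positive libraries, where they are higher. The median log2 fold change of the 10 tested genes was 0.06, with 5 above and 5 below 0. RAB27B (ENSG00000041353; protein-coding, GENCODE v29 on GRCh38, chromosome 18, 54717860 to 54895516, plus strand) had 31.3 and 17.7 TPM in GFP-positive cells, against 3.63 and 10.6 TPM in GFP-negative cells. Neither GFP-negative library reached the lower GFP-positive one, with a mean of 24.5 ± 9.63 TPM against 7.12 ± 4.93 TPM (SD, n = 2 each). However, the GFP-positive replicates lay further apart than the nearest libraries of different groups. The log2 fold change was 1.74 ± 0.55 (SE; 95% interval 0.41 to 3.08; limma adjusted p = 0.249). Without GFP-negative replicate 1 it was 1.08, and without GFP-negative replicate 2 it was 2.41.

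RAB27A (ENSG00000069974; protein-coding, chromosome 15, 55202966 to 55319113, minus strand), whose loss causes Griscelli syndrome with pale hair and failing cytotoxic lymphocytes, had 11.5 and 13.7 TPM in GFP-positive cells, against 8.81 and 11.2 TPM in GFP-negative cells. The libraries came close without overlapping, and the log2 fold change was 0.31 ± 0.35 (SE; 95% interval -0.55 to 1.17; limma adjusted p = 0.771). RAB27B made up 73.1% and 56.2% of the summed RAB27 level in GFP-positive libraries, against 29.2% and 48.6% in GFP-negative libraries. The larger share of the paralogs thus lay with RAB27B in GFP-positive cells and with RAB27A in GFP-negative cells, with 1 GFP-negative library near an even split. The difference in share was not tested.

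The RAB3 genes, which act in the release of neurotransmitter and hormone granules, lay on different sides. RAB3A had 5.61 and 3.88 TPM in GFP-positive cells, against 0.46 and 1.47 TPM in GFP-negative cells (log2 fold change 1.58 ± 0.54, SE; limma adjusted p = 0.279). RAB3D, known from exocrine granules and from Weibel-Palade bodies, had 6.42 and 4.66 TPM against 13.4 and 11.4 TPM (-1.04 ± 0.39, SE; limma adjusted p = 0.320). Neither set of libraries overlapped. RAB3C was the most abundant gene of the step, with 43.5 and 63.2 TPM against 49.4 and 67.8 TPM, and its libraries overlapped (-0.14 ± 0.27, SE; limma adjusted p = 0.889). RAB3B had 1.73 and 1.69 TPM against 1.48 and 1.46 TPM. RAB3C thus made 76.0% and 86.1% of the summed RAB3 level in GFP-positive libraries, against 76.3% and 82.6% in GFP-negative ones. Part of the RAB3D transcript sequence (21.3% of its stretches of 50 bases) also occurs in transcripts of other genes, so its counting is uncertain. The same holds for RAB24 (38.2%), RAB1B (34.0%), RAB5C (24.8%), RAB13 (21.9%), RAB40A (19.5%) and RAB1A (18.1%), and for others named with their share. The genes that share most with RAB1B and with RAB13 have no row in these data, and how their reads were counted is unknown.

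Other genes of the step were low or variable. RAB37, a Rab of secretory granules in mast cells and macrophages, had 3.05 and 6.92 TPM in GFP-positive cells, against 2.31 and 0.33 TPM in GFP-negative cells (log2 fold change 1.43 ± 0.67, SE; limma adjusted p = 0.411). Mast cell and basophil markers, of which 6 of 7 listed genes had a row, summed to 23.5 and 17.4 TPM against 4.42 and 1.92 TPM. The largest part of the GFP-positive sums was GATA1, which erythroid cells and megakaryocytes also express, with 17.6 and 8.40 TPM against 3.08 and 0 TPM. HDC had 2.68 and 2.90 TPM against 0.56 and 0 TPM, and FCER1A had 1.72 and 6.06 TPM against 0.78 and 0.99 TPM. CPA3, TPSAB1 and MS4A2 were at most at 0.93 TPM in any library. The part of all these markers in the RAB37 values was not tested. RAB32 and RAB38, which deliver enzymes to melanosomes and related organelles, overlapped between the groups, RAB32 with 49.9 and 20.0 TPM against 53.4 and 36.3 TPM and RAB38 with 15.2 and 11.4 TPM against 14.2 and 12.6 TPM. RAB26 had 1.91 and 2.88 TPM against 1.87 and 6 TPM.

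**Figure D2:**
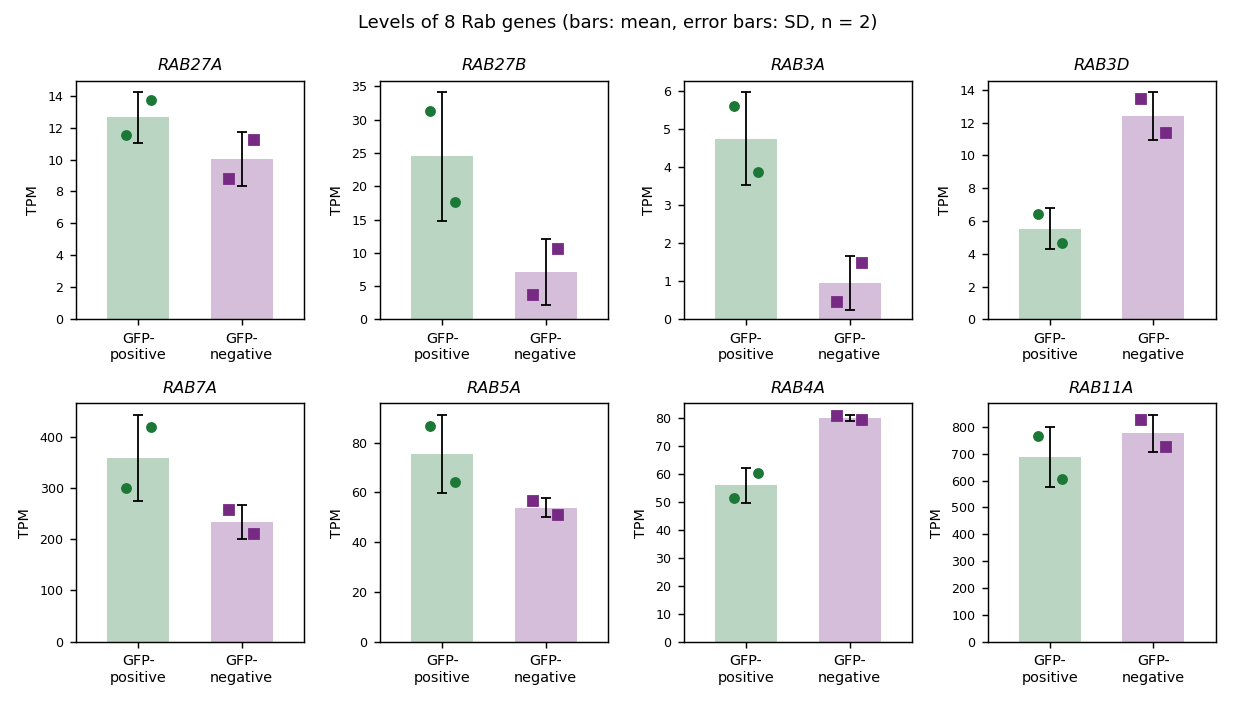
TPM of 8 Rab genes, with bars for the mean, error bars for the SD and points for the 2 libraries of GFP-positive (left) and GFP-negative (right) cells. RAB27B, RAB3A, RAB7A and RAB5A have both GFP-positive points on top, RAB3D and RAB4A have both at the bottom, and RAB11A overlaps.

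The late endosome, lysosome and autophagy step was led by RAB7A, which drives fusion of late endosomes with lysosomes. RAB7A (ENSG00000075785; chromosome 3, 128726122 to 128814796, plus strand) had 299 and 418 TPM in GFP-positive cells, against 257 and 209.5 TPM in GFP-negative cells. The groups did not overlap, but the GFP-positive replicates lay further apart than the nearest libraries of different groups. The log2 fold change was 0.61 ± 0.20 (SE; 95% interval 0.11 to 1.10; limma adjusted p = 0.273), and it was 0.36 without GFP-positive replicate 2. RAB34, which positions lysosomes near the Golgi, had 159.7 and 132 TPM in GFP-positive cells, against 111 and 125 TPM in GFP-negative cells (0.30 ± 0.17, SE; limma adjusted p = 0.500). RAB12 had 25.4 and 21.0 TPM against 26.99 and 31.5 TPM, with GFP-positive libraries below.

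Summed over its 8 genes, the step stood at 552 and 629 TPM in GFP-positive libraries, against 465 and 432 TPM in GFP-negative libraries. Without RAB7A the sums were 253 and 212 TPM against 208 and 223 TPM, and the groups overlapped. RAB24, named for its part in autophagy, had 51.7 and 33.6 TPM against 53.4 and 42.4 TPM. RAB9A, which returns receptors from late endosomes to the Golgi, had 13.2 and 20.7 TPM against 15.4 and 19.6 TPM. Its paralog RAB9B and RAB39A stayed under 2 TPM in every library and overlapped between the groups. Of 7 tested genes, 3 were above and 4 below 0, and the median log2 fold change was -0.06.

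The recycling endosome step lay lower in GFP-positive cells in sum, at 1160 and 1074 TPM against 1296 and 1198 TPM in GFP-negative cells. Without RAB11A the sums were 395 and 467 TPM against 471 and 473 TPM. Here 7 of 9 genes were below 0, against 7442 of all 15425 genes tested, with a median log2 fold change of -0.16. The libraries did not overlap in 0 genes above and 4 below (44.4%, against 44.3% of all genes tested). RAB11A, the Rab of slow recycling and the most abundant of the family, had 765 and 607 TPM in GFP-positive cells, against 824 and 726 TPM in GFP-negative cells. The libraries overlapped (log2 fold change -0.18 ± 0.16, SE; 95% interval -0.56 to 0.20; limma adjusted p = 0.679). RAB11A alone made 20.0% and 16.1% of the summed Rab level in GFP-positive libraries, against 21.3% and 19.8% in GFP-negative libraries.

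RAB4A, which returns receptors from early endosomes to the surface by the fast route, had 51.5 and 60.4 TPM in GFP-positive cells, against 80.8 and 79.3 TPM in GFP-negative cells. The gap between the groups was larger than either gap between replicates (log2 fold change -0.51 ± 0.18, SE; 95% interval -0.96 to -0.07; limma adjusted p = 0.297). Of its stretches of 50 bases, 17.9% also occur in other genes, mainly SPHAR, which lies inside it. Its paralog RAB4B had 44.5 and 27.2 TPM against 30.9 and 34.6 TPM, and it shares 39.8% of its stretches with other genes, first the read-through gene RAB4B-EGLN2. RAB14 had 61.4 and 67.9 TPM against 71.2 and 73.5 TPM, all below in GFP-positive cells but by little (-0.16 ± 0.18, SE). RAB11B and RAB35 overlapped, RAB11B with 144 and 172 TPM against 175 and 161 TPM, and RAB35 with 82.5 and 117 TPM against 97.6 and 100.3 TPM. RAB15 overlapped as well, with 10.9 and 20.7 TPM against 11.6 and 14.4 TPM.

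RAB25 and RAB17, the recycling Rabs of epithelial cells, were near the lower limit. RAB25 was listed at 0 in GFP-positive replicates 1 and 2, against 2.17 and 2.23 TPM in GFP-negative cells (limma adjusted p = 0.249, with no fold given against a group at 0). It entered the test through the GFP-negative libraries alone. RAB17 had 0.70 and 2.55 TPM against 2.59 and 7.56 TPM, and the nearest libraries of the groups were almost level. Among 8 epithelial markers, all tested, the sum was 1765 and 1498 TPM in GFP-positive cells, against 961 and 1144 TPM in GFP-negative cells, most of it KRT8 and KRT18. Of the 8, 4 had both GFP-positive libraries above both GFP-negative ones and 3 had them below (87.5%, against 44.3% of all genes tested). Above were KRT8, KRT18, KRT19 and EPCAM, the last with 9.35 and 20.4 TPM against 8.55 and 7.59 TPM. Below were CLDN7 with 28.0 and 12.8 TPM against 73.8 and 67.8 TPM, and CDH1 with 1.92 and 1.38 TPM against 5.15 and 2.91 TPM. AFP was also below, with 1.45 and 0 TPM against 2.70 and 1.65 TPM. The part of these 8 markers in the RAB25 and RAB17 values was not tested.

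**Figure D3:**
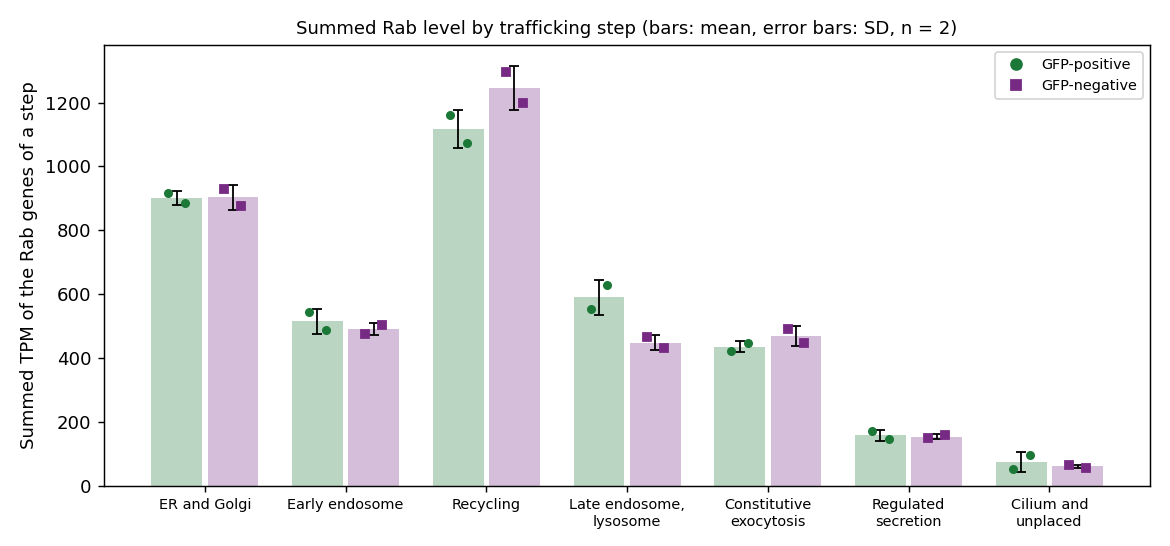
Summed TPM of the Rab genes of each trafficking step, with bars for the mean, error bars for the SD and points for the 2 libraries of GFP-positive (left) and GFP-negative (right) cells. The groups are apart in the recycling step, lower in GFP-positive cells, and in the late endosome step, higher in GFP-positive cells.

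In the early endosome step no gene passed, and the RAB5 paralogs did not all lie on 1 side. RAB5A, which drives fusion of incoming vesicles with early endosomes, had 86.6 and 64.2 TPM in GFP-positive cells, against 56.5 and 51.1 TPM in GFP-negative cells (log2 fold change 0.47 ± 0.22, SE; limma adjusted p = 0.412). RAB5B had 70.2 and 70.8 TPM against 80.8 and 82.2 TPM, with close replicates on both sides (-0.21 ± 0.17, SE; limma adjusted p = 0.654). RAB5C, the most abundant, overlapped with 206 and 183 TPM against 177 and 202 TPM (0.03 ± 0.15, SE; 95% interval -0.34 to 0.40; limma adjusted p = 0.957). As a share of the 3 paralogs, RAB5A made 23.9% and 20.2% in GFP-positive libraries, against 18.0% and 15.2% in GFP-negative libraries.

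The rest of the step overlapped between the groups. RAB31, a Rab of traffic between the trans-Golgi and endosomes, had 103 and 111 TPM against 83.7 and 104 TPM. RAB21, which moves integrins, had 46.7 and 45.7 TPM against 53.8 and 35.4 TPM. RAB20 and RAB22A stayed under 20 TPM, RAB20 at 16.5 and 6.38 TPM against 15.6 and 10.6 TPM and RAB22A at 7.78 and 5.93 TPM against 8.60 and 6.50 TPM. The row of ENSG00000267261, of whose stretches of 50 bases 85.0% occur in other genes, was listed at 6.39 and 0 TPM against 0 and 12.2 TPM. Summed over the step, GFP-positive libraries had 543 and 487 TPM and GFP-negative libraries 476 and 504 TPM.

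Transport between the endoplasmic reticulum and the Golgi was nearly even between the groups, at 918 and 886 TPM in GFP-positive libraries against 930 and 876 TPM in GFP-negative libraries. RAB1B and RAB1A, which carry cargo out of the endoplasmic reticulum, led it. RAB1B had 282 and 285 TPM in GFP-positive cells, against 283 and 238 TPM in GFP-negative cells (log2 fold change 0.13 ± 0.14, SE; 95% interval -0.22 to 0.48; limma adjusted p = 0.765). RAB1A had 245 and 241 TPM against 217 and 230 TPM, all above in GFP-positive cells by a small margin (0.12 ± 0.13, SE).

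The RAB2 paralogs, which act between the Golgi and the endoplasmic reticulum, lay on opposite sides of 0 without passing. RAB2B had 23.1 and 33.2 TPM in GFP-positive cells, against 15.9 and 18.7 TPM in GFP-negative cells (log2 fold change 0.65 ± 0.30, SE; limma adjusted p = 0.410). RAB2A had 132 and 119 TPM against 147 and 135 TPM (-0.16 ± 0.15, SE). RAB2B thus made 14.9% and 21.8% of the summed RAB2 level in GFP-positive libraries, against 9.78% and 12.2% in GFP-negative libraries. RAB6A, a Rab of retrograde Golgi traffic, had 90.9 and 72.4 TPM against 105 and 107 TPM (-0.38 ± 0.18, SE; limma adjusted p = 0.418). It shares 20.1% of its stretches of 50 bases with other genes, first RAB6C, a near copy listed at 0 throughout.

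Among the lower genes of the step, RAB39B, which is mutated in an X-linked brain disorder, had the largest difference. It was at 0.72 and 0 TPM in GFP-positive cells, against 1.93 and 2.25 TPM in GFP-negative cells (limma adjusted p = 0.406), and it entered the test through the GFP-negative libraries alone. RAB33B, which acts in autophagy, had 5.39 and 3.09 TPM against 5.85 and 10.1 TPM (log2 fold change -0.77 ± 0.49, SE). RAB43 overlapped with 18.3 and 28.5 TPM against 38.9 and 26.8 TPM, and 80.0% of its stretches also occur in other genes, first the read-through gene ISY1-RAB43. RAB18, at 90.9 and 73.7 TPM against 84.1 and 75.5 TPM, overlapped as well. So did RAB30 at 14.97 and 11.5 TPM against 10.5 and 12.6 TPM, RAB33A at 11.3 and 15.5 TPM against 20.3 and 13.4 TPM, and RAB6B at 2.69 and 2.23 TPM against 0.86 and 6.90 TPM. In this step the libraries did not overlap in 2 genes above and 4 below of 12 tested (50%, against 44.3% of all genes tested), and the median log2 fold change was -0.16.

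The Rabs of constitutive and polarised exocytosis carry cargo from the Golgi and recycling endosomes to the cell surface, and their 4 genes summed to 423 and 448 TPM in GFP-positive libraries, against 492 and 447 TPM in GFP-negative libraries. RAB13, which acts at cell junctions, had 223 and 216 TPM in GFP-positive cells, against 274 and 246 TPM in GFP-negative cells. The groups did not overlap, and the log2 fold change was -0.24 ± 0.14 (SE; 95% interval -0.58 to 0.09; limma adjusted p = 0.494). RAB8B had the largest difference of the step, with 43.3 and 28.0 TPM against 42.1 and 58.2 TPM, and its libraries overlapped (-0.49 ± 0.30, SE; limma adjusted p = 0.527). RAB10, known from the delivery of the glucose transporter GLUT4, had 91.8 and 122 TPM against 95.9 and 76.6 TPM. RAB8A had 65.3 and 82.6 TPM against 80.3 and 66.4 TPM, with 39.1% of its stretches of 50 bases also in other genes.

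The last group holds Rabs of the cilium, of ubiquitin ligases and without a settled place. RAB40C, a Rab with a SOCS box that binds a ubiquitin ligase, led it with 24.8 and 48.5 TPM in GFP-positive cells, against 26.1 and 20.2 TPM in GFP-negative cells, and its libraries overlapped (log2 fold change 0.58 ± 0.37, SE; limma adjusted p = 0.556). RAB28 had 17.5 and 20.5 TPM against 20.7 and 20.4 TPM. RAB23, a regulator of Hedgehog signalling, had 4.74 and 12.3 TPM against 8.74 and 6.67 TPM, and 57.3% of its stretches occur in BAG2, which overlaps it on the other strand. RAB40A, RAB40B and RAB42 stayed under 10 TPM. In none of the 6 tested genes of this group were the libraries apart, against 44.3% of all genes tested.

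**Figure D4:**
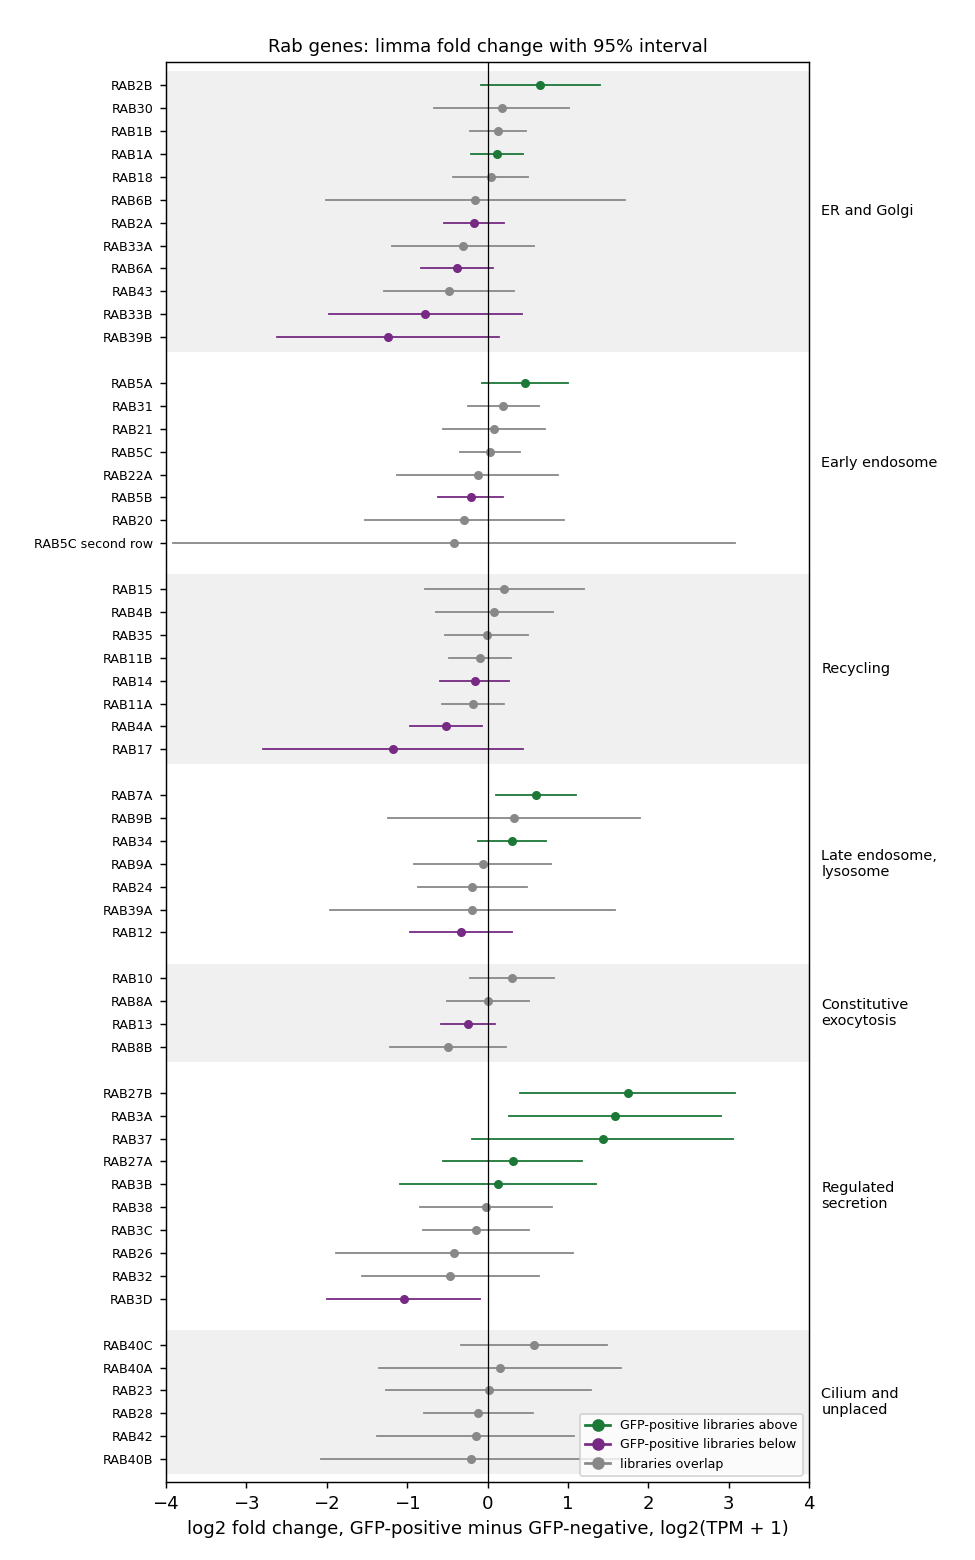
Log2 fold change (GFP-positive minus GFP-negative, on log2(TPM + 1)) with its 95% interval from limma for the tested Rab genes, by step, without RAB25, for which no fold is given. RAB27B, RAB7A and RAB3A have intervals above 0 and RAB4A and RAB3D below 0, before adjustment over all genes.

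Genes that act on Rabs were set beside the family. In 9 lists 0 genes passed limma with Benjamini-Hochberg adjustment, against 0.447% of all genes tested, and the counts at an unadjusted p under 0.05 are read against 14.1%. Of 8 genes for prenylation and membrane recycling of Rabs, 4 were above and 4 below 0. RABGGTB, a subunit of the enzyme that attaches the lipid anchor, had 186 and 192 TPM in GFP-positive cells, against 130.1 and 130.4 TPM in GFP-negative cells (log2 fold change 0.53 ± 0.14, SE; limma adjusted p = 0.183). GDI2, which extracts Rabs from membranes, had 355 and 353 TPM against 343 and 358 TPM, and the direction of its difference turned with the scaling (0.01, and -0.02 with upper quartile scaling).

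Exchange factors, 39 in all, had 2 higher and 4 lower genes at an unadjusted p under 0.05, and a median log2 fold change of -0.10 (-0.16 to -0.10 with 1 library left out). ST5 (also DENND2B) and DENND3, both DENN-domain exchange factors, had the smallest p of the list. ST5 had 30.0 and 35.6 TPM in GFP-positive cells, against 82.3 and 77.9 TPM in GFP-negative cells (-1.27 ± 0.20, SE; limma adjusted p = 0.0682). DENND3, an activator of RAB12, had 33.6 and 38.2 TPM against 71.6 and 86.6 TPM (-1.11 ± 0.21, SE; limma adjusted p = 0.0966). GAPVD1, the most abundant, had 199 and 164 TPM against 212 and 213 TPM (-0.23 ± 0.15, SE; limma adjusted p = 0.575). When only the 11823 genes with a mean of at least 5 TPM were tested, limma gave ST5 an adjusted p of 0.0462.

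Of 38 tested TBC-domain GTPase-activating proteins, 2 were higher and 0 lower at an unadjusted p under 0.05, with a median log2 fold change of -0.09 (-0.17 to 0.05 with 1 library left out). TBC1D4, which acts on RAB10 in insulin-responsive cells, had 186 and 142 TPM in GFP-positive cells, against 69.4 and 120.1 TPM in GFP-negative cells (0.82 ± 0.29, SE; limma adjusted p = 0.292). TBC1D30 had 12.9 and 13.7 TPM against 7.08 and 2.74 TPM (1.38 ± 0.49, SE; limma adjusted p = 0.297). TBC1D9B led the list by level, with 140 and 132 TPM against 146 and 173 TPM.

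Among effectors of RAB27 and RAB3, the log2 fold changes of 11 tested genes (of 14) had their median at 0.38 (0.13 without a filter, and 0.08 to 0.51 with 1 library left out), with 0 higher and 1 lower at an unadjusted p under 0.05. UNC13D, which primes granules for fusion in cytotoxic cells and platelets, had 25.1 and 49.0 TPM in GFP-positive cells, against 24.2 and 8.49 TPM in GFP-negative cells (1.22 ± 0.55, SE; limma adjusted p = 0.396). It was named after its values were seen, as were SYTL4 and MYRIP. SYTL4, granuphilin, had 22.9 and 17.4 TPM against 14.3 and 14.2 TPM, and MYRIP, which ties RAB27A to myosin and actin, was at most 0.21 TPM in any library. SYTL2, the lower gene, had 0.86 and 0.40 TPM against 4.74 and 3.33 TPM (-1.63 ± 0.52, SE; limma adjusted p = 0.253), and it entered the test through the GFP-negative libraries alone. MLPH, melanophilin, had 1.65 and 1.67 TPM against 0 and 0.19 TPM (limma adjusted p = 0.361), and it entered the test through the GFP-positive libraries alone. RIMS2, a scaffold of nerve terminals, was listed at 428 and 405 TPM against 415 and 396 TPM, the highest of the list.

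Among 10 RAB7 effectors and tethering subunits, 1 was higher and 0 lower at an unadjusted p under 0.05. Of the 10, 4 were above and 6 below 0, with a median log2 fold change of -0.06 (-0.17 to 0.07 with 1 library left out). RILP, which links RAB7 to dynein, had 49.8 and 39.5 TPM in GFP-positive cells, against 28.3 and 20.0 TPM in GFP-negative cells (0.87 ± 0.28, SE; limma adjusted p = 0.253). VPS41, a tethering subunit for lysosome fusion, had 48.4 and 51.5 TPM against 37.3 and 32.5 TPM (0.51 ± 0.21, SE; limma adjusted p = 0.360), and VPS39 overlapped at 61.6 and 37.2 TPM against 53.7 and 43.0 TPM. RAB7A and RILP, the gene with the smallest p of its list, thus had GFP-positive libraries on top, and neither passed. In the list, the libraries did not overlap in 3 genes above and 2 below (50%, against 44.3% of all genes tested). Of 10 RAB11 and RAB4 effectors, NDRG1, an effector of RAB4 in E-cadherin recycling, had 85.9 and 103 TPM against 148 and 218 TPM (-0.93 ± 0.23, SE; limma adjusted p = 0.159), while RUFY1 overlapped at 44.2 and 38.6 TPM against 39.8 and 25.2 TPM.

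Of 12 RAB5 effectors, 0 reached an unadjusted p under 0.05. ANKFY1 had 30.8 and 25.2 TPM in GFP-positive cells, against 38.1 and 33.4 TPM in GFP-negative cells, and PIK3C3, the kinase that makes the lipid of early endosomes, had 77.1 and 106 TPM against 77.3 and 107 TPM. RABEP2 had 27.8 and 52.9 TPM against 48.2 and 54.3 TPM. Golgi and exocytic effectors had 3 higher and 1 lower of 14 at an unadjusted p under 0.05, with a median log2 fold change of 0.21 (-0.09 to 0.30 with 1 library left out). EHBP1L1, an effector of RAB8 and RAB10, had 51.7 and 56.5 TPM against 28.2 and 11.3 TPM (1.54 ± 0.42, SE; limma adjusted p = 0.199). MICAL1, which oxidises actin, had 19.5 and 18.5 TPM against 34.0 and 33.3 TPM (-0.79 ± 0.24, SE; limma adjusted p = 0.241). USO1, the most abundant tether of the list, had 79.9 and 119 TPM against 68.4 and 81.0 TPM.

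Weibel-Palade body genes had 0 higher and 3 lower of 10 tested at an unadjusted p under 0.05, and a median log2 fold change of -0.09 (-0.20 to 0.15 with 1 library left out). VWF, the main cargo of the granule, had 37.0 and 33.1 TPM in GFP-positive cells, against 86.9 and 73.0 TPM in GFP-negative cells (-1.16 ± 0.20, SE; limma adjusted p = 0.0861). PLAT, the gene of tissue plasminogen activator, had 5.53 and 7.52 TPM against 12.7 and 18.4 TPM (-1.13 ± 0.39, SE; limma adjusted p = 0.287). CD63, a tetraspanin of lysosome-related organelles, had 1100.3 and 1158 TPM against 1108 and 1182 TPM, the highest of the list. RAB3D and VWF thus had both GFP-positive libraries below both GFP-negative ones, while RAB27A, RAB27B, SYTL4 and UNC13D had them above. VWF is also among the endothelial markers, whose 10 genes all had GFP-positive libraries below (100%, against 21.5% of all genes tested).

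**Figure D5:**
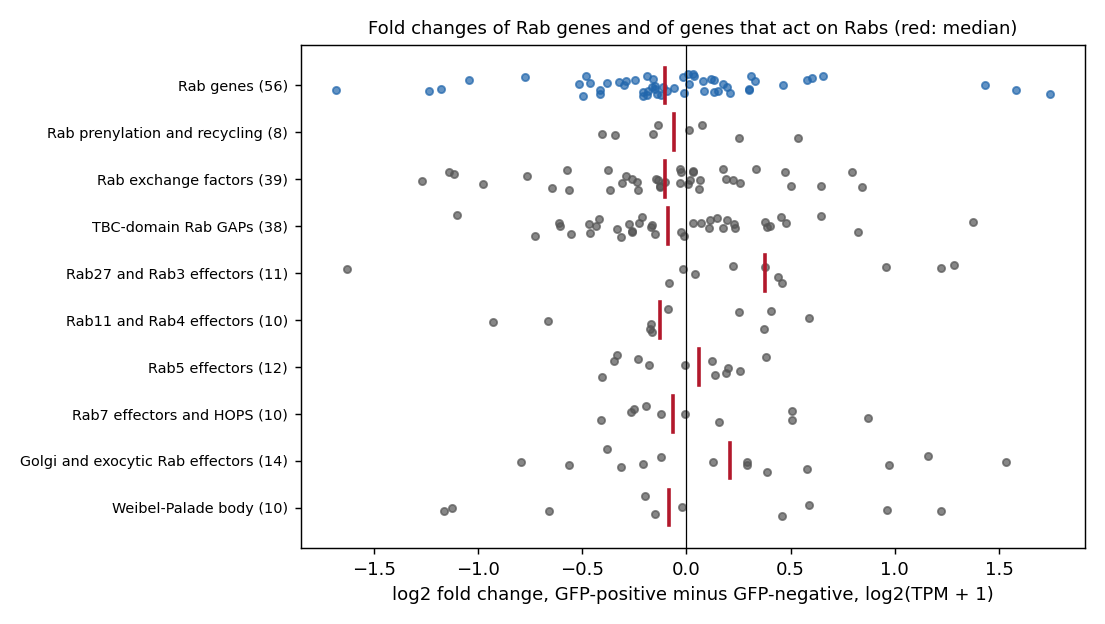
Log2 fold changes (GFP-positive minus GFP-negative, on log2(TPM + 1)) of the 56 tested Rab genes and of 9 lists of genes that act on them, with each point a gene and a red line at the median. Medians lie between -0.13 for RAB11 and RAB4 effectors and 0.38 for RAB27 and RAB3 effectors, and the last is 0.08 without GFP-positive replicate 2.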

How the data were processed

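Sources used here give no strand setting, annotation or read number. Per the labels' protocols, Trizol was used to extract RNA, and TruSeq RNA kits from Illumina to make libraries. Bowtie and RSEM appear in the submitters' processing notes with no version, as do the builds hg19 and mm10 with no role. The authors deposited 1 table per library, and its values were taken as TPM, a unit that RSEM writes; which step made the authors' TPM values is not stated beyond the tool names in the submitters' processing notes. The file headers name the library and no unit, and the values sum to between 996324 and 997293. No counts were given, so each library's depth is unknown.

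Groups and replicate numbers came from the titles. Limma 3.58.1 in R 4.3.3 compared log2(TPM + 1) between the groups for the 15425 genes that reached 1 TPM in 2 or more libraries, letting the variance follow the mean, two-sided, with Benjamini-Hochberg adjustment and a threshold of 0.05. The procedure was tested on simulated data, with changes placed in genes of higher level only. It recovered 37% of log2 changes of 1 and 90.8% of those of 2. A gene that did not pass may therefore still differ. Alternatives were the pseudocount, the filter, the variance trend, the scaling, a replicate block and leaving out each library. A log2 fold change on this scale understates changes of low genes. Members, steps and lists were chosen with earlier results of these data known. Values in every library are given for RAB27A, RAB27B, members with an unadjusted p under 0.05, and the most abundant and most different member of each step. In each list, passing genes, otherwise the 2 with the smallest p, and the most abundant are named. Other members are named to account for the family. For 1 list, a gene that this rule names is not reported here. Coordinates are GENCODE v29 on GRCh38, matched by gene identifier (61 of 61 Rab rows), and promoters are RefSeq's. Shared sequence was counted as stretches of 50 bases of a gene's GENCODE transcripts found, on either strand, in those of another gene.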

Additional observations from a re-analysis of the deposited data

How the results depend on the processing

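No Rab gene passed limma in any setting tried: another pseudocount, no filter, a higher filter, no variance trend, upper quartile or median ratio scaling, a replicate block, and leaving out any 1 library. The smallest adjusted p of a Rab gene over these settings was 0.105, and 4 to 6 Rab genes had an unadjusted p under 0.05 with all libraries (2 to 9 with 1 left out). Of the 56, 32 kept the sign of their fold change in every setting and 24 did not, and the cause was not tested. Over all genes limma called 69, but 0 when 0.1 was the pseudocount, 0 without a filter and 0 without a variance trend (with 2101, 2230 and 2072 genes at an unadjusted p under 0.05), 164 with a mean of at least 5 TPM, 596 with the replicate block and 18 to 65 with 1 library left out (18 without GFP-negative replicate 1). The groups share replicate numbers but no stated pairing; deviations of same-numbered libraries correlated at 0.072 over all genes tested and at -0.44 over the 56 Rab genes, and the replicate block called 0 Rab genes, 2 exchange factors, 1 RAB11 and RAB4 effector, 1 Golgi and exocytic effector and 1 Weibel-Palade body gene. With a mean of at least 5 TPM, 1 exchange factor was called.

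The median over Rab genes was -0.0794 with a pseudocount of 0.1, -0.0609 without a filter, -0.0393 with a mean of at least 5 TPM, -0.1347 with upper quartile scaling, -0.1260 with median ratio scaling and -0.068 to -0.0006 with 1 library left out. Step medians with 1 library left out ran from -0.1437 to -0.021 (endoplasmic reticulum and Golgi), -0.4142 to 0.7069 (cilium and unplaced), -0.1973 to -0.0114 (constitutive exocytosis), -0.1947 to 0.1305 (early endosome), -0.2264 to 0.3552 (late endosome), -0.2587 to -0.0624 (recycling) and 0.1004 to 0.178 (regulated secretion). With a mean of at least 5 TPM the endoplasmic reticulum and Golgi median was -0.0631 and that of regulated secretion -0.0783, and regulated secretion had 0.0927 with a pseudocount of 0.1 and 0.0118 without a filter. GDI2 turned to -0.0198 with upper quartile and -0.0109 with median ratio scaling. Among the genes that the naming rule gives and the Rab genes whose groups did not overlap, those that turned with 1 library left out had log2 fold changes from -0.0669 to 0.027 for CD63, -0.0184 to 0.0448 for GDI2, -0.2347 to 0.2232 for PIK3C3, -0.4029 to 0.1254 for RAB3C, -0.0598 to 0.1265 for RAB5C, -0.8592 to 0.0475 for RABEP2, -0.3592 to 0.3514 for VPS39. The medians of the lists of genes that act on Rabs turned with 1 library left out, except those of exchange factors and of RAB27 and RAB3 effectors. The cause was not tested. With unknown depth, no limit can be set for values listed at 0.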

Other observations

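A pair of genes best known from nerve cells were abundant, and they were chosen for mention after their values were seen. RAB3C, a synaptic vesicle Rab, had 43.5 and 63.2 TPM in GFP-positive cells, against 49.4 and 67.8 TPM in GFP-negative cells, above RAB27A in every library. RIMS2, a binding partner of RAB3 in nerve terminals, was listed at 428 and 405 TPM against 415 and 396 TPM. Of stretches of 50 bases, 0% of RAB3C and 2.3% of RIMS2 also occur in transcripts of other genes. Other genes of the RAB3 machinery of nerve terminals were low in the same libraries, with at most 0.90 TPM for RIMS1, 2.06 TPM for RIMS3 and 5.54 TPM for RPH3A. Reads along these genes are not analysed here.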
